A study of Mus musculus with 2 samples.

Results

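Cardiac muscle cells are joined end to end at the intercalated disc, and the 10 genes described here encode its junctions: the connexins Gja1, Gja5 and Gjc1, the desmosome genes Dsp, Dsg2, Dsc2, Jup and Pkp2, and the adherens junction genes Cdh2 and Ctnna3. They were taken by gene symbol from the deposited tables, with every class of transcript model, and are 10 of the 16310 annotated genes with at least 1 read in either library. Hearts of female B6CASTF1/J mice, which are first-generation hybrids, were taken at 14 days of age, and their total RNA was sequenced as long reads. No treatment or genetic change is named in the labels, and there was 1 group of 2 libraries, called replicates 1 and 2. The labels give both as biological replicates, but they give both the same donor identifier and name the animal of replicate 2 differently in separate fields. Whether the libraries came from different animals is therefore unclear, and the p-values cover only counting error between these 2 libraries.

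Gap junctions are clusters of channels built from connexins, and they pass current and small molecules from cell to cell. Desmosomes hold cells together: the cadherins Dsg2 and Dsc2 cross the membrane, plakoglobin (Jup) and plakophilin (Pkp2) bind their tails, and desmoplakin (Dsp) ties the plaque to desmin filaments. Adherens junctions do the same for actin through N-cadherin (Cdh2) and the catenins. Inherited variants of the desmosome genes are a known cause of arrhythmogenic cardiomyopathy.

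The deposited tables count reads per transcript model. A long read is read from a single cDNA molecule, so reads were not divided by transcript length. Levels are given as reads of a gene as counts per 1000000 reads (CPM). Whether transcript length affected how many molecules were read was not tested, so orders between genes are orders of reads. A single read was worth 1.17 CPM in replicate 1 and 1.08 in replicate 2. A gene with 0 reads may still have a level of up to 3 reads, a floor of 3.50 and 3.24 CPM. Libraries held 896941 and 972159 reads, of which 858071 and 926560 stood behind the CPM values. Of 7 heart muscle markers, Myh6, the main myosin heavy chain of mouse heart, was the highest, at 31270 and 30799 CPM. Ryr2, the lowest, stood at 71.1 and 46.4 CPM.

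The sequences that bear most on the results are those around the start codons of the 3 connexins and around the splice donors of Dsp, all from the GENCODE M21 transcripts on mm10. All 3 connexins keep their whole coding sequence in 1 exon in these forms. Another annotated form, Gja5-203, has 2 coding exons. The start codon is in capitals, with 12 bases before it and 30 after, 5′ to 3′.
Gja1-201 (chr10:56387535-56387579, plus strand): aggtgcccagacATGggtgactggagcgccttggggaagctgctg
Gja5-201 (chr3:97050617-97050661, plus strand): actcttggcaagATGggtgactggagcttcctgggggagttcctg
Gjc1-201 (chr11:102801143-102801187, minus strand): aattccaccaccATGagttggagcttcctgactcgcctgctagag

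From the start codon on, Gja1 and Gja5 shared 27 of these 33 bases, and Gja1 and Gjc1 shared 12 of 33 when set side by side without gaps. The start codon lies 13 bases into its exon in Gja1, 33 in Gja5 and 20 in Gjc1, so the last splice of each 5′ leader falls just before the protein begins. The coding sequences are 1146, 1074 and 1188 bases long.

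In Dsp, splicing chooses between donors in 1 long exon. The annotated form Dsp-201 keeps all 2295 bases of that exon and encodes desmoplakin I, and Dsp-202 keeps only its first 498 bases and encodes desmoplakin II, with a shorter rod. Some reads used another donor that the annotation lacks. Each line gives the last 30 bases before the donor (chr13 positions, plus strand) and, in capitals, the first 15 bases of the last exon, to which all 3 are joined.
Dsp-201 (chr13:38193626-38193655): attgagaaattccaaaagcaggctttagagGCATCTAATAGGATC
Dsp-202 (chr13:38191829-38191858): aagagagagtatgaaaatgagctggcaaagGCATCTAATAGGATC
unannotated (chr13:38192297-38192326): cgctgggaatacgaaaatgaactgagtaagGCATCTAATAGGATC

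Where the long exon reads on past the inner donors, the sequence shows the GT (capitals) with which most introns begin.
Dsp-202 donor (chr13:38191829-38191870): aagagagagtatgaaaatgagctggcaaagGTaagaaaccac
unannotated donor (chr13:38192297-38192338): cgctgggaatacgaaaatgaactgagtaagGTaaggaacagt

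Among the connexins, Gja1 was far above the others. Gja1 encodes connexin 43, the main gap junction protein of ventricular muscle, and lies at chr10:56377330-56402513 on the plus strand. It had 1156 reads in replicate 1 and 1505 in replicate 2, or 1347 and 1624 CPM, and a mean of 1486 ± 196 CPM (SD, n = 2). Of 12300 annotated genes with a read in both libraries, it ranked 71st. Gjc1, which encodes connexin 45 of the conduction system and the embryonic heart (chr11:102799579-102819700, minus strand), had 57 and 69 reads, or 66.4 and 74.5 CPM. Gja5, which encodes connexin 40 of atrium, conduction system and arterial endothelium (chr3:96904693-97077416, plus strand), had 13 and 13 reads, or 15.2 and 14.0 CPM. In bulk tissue, fewer cells of a type and less RNA per cell cannot be told apart.

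Of the reads of these 3 connexins, Gja1 took 94.3% in replicate 1 (exact Clopper-Pearson interval 92.8 to 95.5) and 94.8% in replicate 2 (93.6 to 95.9). Gjc1 took 4.65% and 4.35%, and Gja5 took 1.06% and 0.819%. The libraries thus gave the same order of the 3 genes, with intervals that did not overlap. Intervals here and below are exact at 95% and cover counting error only.

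Markers of the tissues in which Gja5 is known were also measured. The 4 atrial markers summed to 3016 and 2656 CPM, led by Nppa, the precursor of atrial natriuretic peptide, at 2078 and 1680 CPM. Conduction markers were low: the 4 genes summed to 14.0 and 20.5 CPM, and Hcn4, the pacemaker channel, had no read. The 4 arterial endothelium markers, which include the connexin gene Gja4, summed to 101 and 68.0 CPM. Their part in the Gja5 level was not tested.

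The desmosome genes together had 391 and 422 reads, or 456 and 455 CPM. Pkp2 (chr16:16213318-16272712, plus strand) was the highest of these member genes, with 201 and 216 reads, or 234 and 233 CPM. It gave 51.4% and 51.2% of their reads. Jup (chr11:100368958-100397763, minus strand), whose product also replaces beta-catenin in adherens junctions, had 85 and 78 reads, or 99.1 and 84.2 CPM. Dsp (chr13:38151294-38198577, plus strand) had 59 and 62 reads, or 68.8 and 66.9 CPM. All 3 plaque genes lay above the desmosomal cadherins Dsg2 and Dsc2 in each library.

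Dsc2, which encodes desmocollin 2 (chr18:20030633-20059554, minus strand), had 29 and 35 reads, or 33.8 and 37.8 CPM. Dsg2, which encodes desmoglein 2 (chr18:20558074-20604521, plus strand), had 17 and 31 reads, or 19.8 and 33.5 CPM, with intervals of 11.5 to 31.7 and 22.7 to 47.5. The Dsg2 value therefore differs by 1.69-fold with the library used, and the intervals overlap. Dsg2 gave 37.0% (interval 23.2 to 52.5) and 47.0% (34.6 to 59.7) of the reads of these 2 cadherins, so their order was not settled at this depth.

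In the adherens junction, Cdh2 (chr18:16588877-16809246, minus strand) had 237 and 252 reads, or 276 and 272 CPM, the second highest of the 10 genes. Ctnna3, which encodes alpha-T-catenin, a catenin known from heart and testis, spans 1573570 bases (chr10:63430098-65003667, plus strand). It had 1 read in replicate 1 and 0 in replicate 2, which allows up to 3.24 CPM there. Its relative Ctnna1, the widely expressed alpha-E-catenin, had 769 and 837 reads, or 896 and 903 CPM. Ctnna3 thus made up 0.130% of the reads of this pair in replicate 1 (interval 0.0033 to 0.721) and 0 of 837 in replicate 2, where the exact interval reaches 0.440% and a count of 3 reads would be 0.358%.

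Ranked by mean CPM, the order was Gja1, Cdh2, Pkp2, Jup, Gjc1, Dsp, Dsc2, Dsg2, Gja5 and Ctnna3. Gja1 was 5.42 times Cdh2. Only Gjc1 and Dsp had library values that overlapped. The exact intervals overlapped in both libraries for 5 neighbouring pairs, namely Cdh2 and Pkp2, Jup and Gjc1, Gjc1 and Dsp, Dsc2 and Dsg2, and Dsg2 and Gja5, and in replicate 2 also for Dsp and Dsc2. Counting only reads on annotated models moved Dsp from 67.8 to 5.11 CPM and Dsg2 from 26.6 to 10.6 CPM. It raised Gja1 from 1486 to 1765, Cdh2 from 274 to 282, Pkp2 from 234 to 270 and Gja5 from 14.6 to 15.9 CPM. In that setting Gja5 stood above Dsg2 and Dsp. A genomic read overlaps a gene but fits no splicing pattern. Counting genomic reads moved Ctnna3 from 0.583 to 5.39 CPM, but of its 3 and 6 genomic reads only 1 and 2 overlapped its exons.

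**Figure D1:**
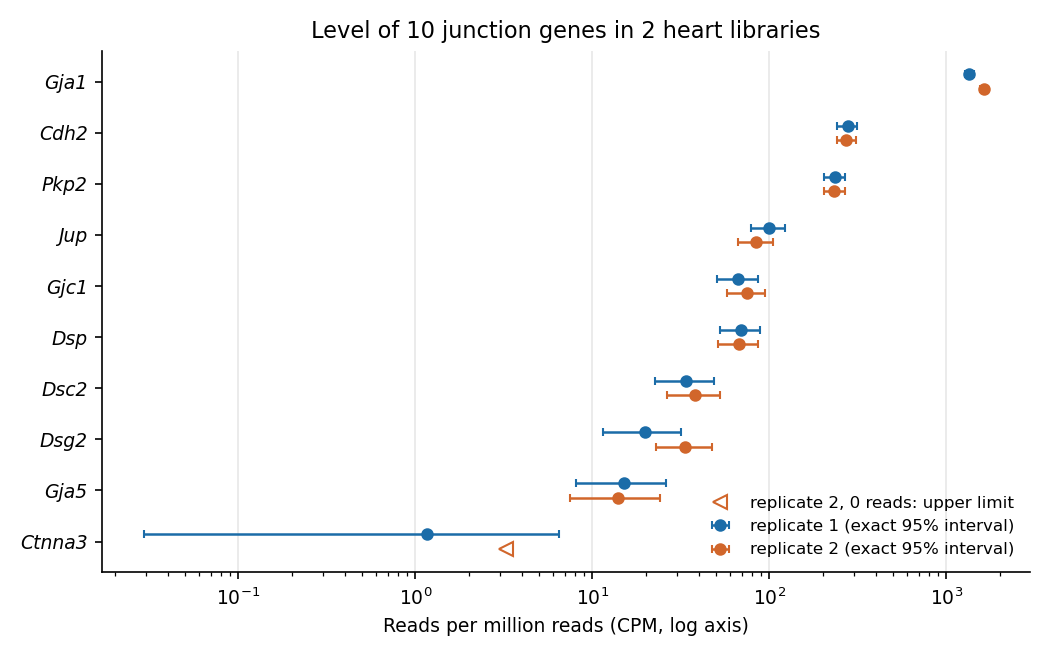
Level of each of the 10 genes in CPM (log axis), with points for replicate 1 (blue) and replicate 2 (orange) and bars for exact 95% intervals; the open triangle marks the upper limit of a count of 0. Gja1 stands apart at 1347 and 1624 CPM, and Ctnna3 lies at or below the floor.

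Between the libraries, Gja1 was the only one of the members tested whose reads differed. Its level was 1.21-fold higher in replicate 2, a log2 ratio of 0.27 (interval 0.16 to 0.38), with an adjusted p of 0.000296 by the two-sided exact binomial test given the library totals and Benjamini-Hochberg adjustment over all genes tested. This was 1 of 9 members tested, since Ctnna3 had too few reads, against a background of 162 of 9433 genes (1.72%), of which 74 (0.784% of those tested) were higher in replicate 2. The other 8 members had adjusted p-values from 0.612 for Dsg2 to 1, which does not show equal levels: the interval of the log2 ratio ran from -0.14 to 1.70 for Dsg2 and from -1.34 to 1.12 for Gja5. The interval was narrowest for Cdh2, from -0.28 to 0.24, and Pkp2, from -0.29 to 0.28.

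Of 7 heart muscle markers, 3 passed the same test and were higher in replicate 2, namely Tnnc1 (log2 ratio 0.27), Myl3 (0.20) and Actc1 (0.15). The others did not pass it, with log2 ratios of 0.19 for Tnni3, 0.03 for Pln, -0.02 for Myh6 and -0.62 for Ryr2 (interval -1.21 to -0.03), and the summed markers stood at 49481 and 51592 CPM. The atrial marker Nppa was lower in replicate 2 by the same test (log2 ratio -0.31). Their part in the Gja1 difference was not tested.

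In 7 of the 10 members most reads were on annotated models in both libraries. TALON is the tool behind the deposited models. It sorts reads into annotated transcripts, incomplete ones, new combinations of known splice sites, models with a new splice site, and genomic reads. Incomplete models hold part of an annotated chain of introns or, for some reads of Gja1, Dsp and Dsg2, part of an unannotated one. Annotated models held 93.2% and 92.8% of Gja1 reads, 89.8% and 87.7% of Pkp2 reads, 82.8% and 80.0% of Dsc2 reads, and 77.6% and 77.5% of Cdh2 reads. The lowest shares were those of Dsg2, with 29.4% and 31.3%, of Dsp, with 8.33% and 3.23%, and of Ctnna3, with none. Incomplete models held 86.7% and 95.2% of all Dsp reads.

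**Figure D2:**
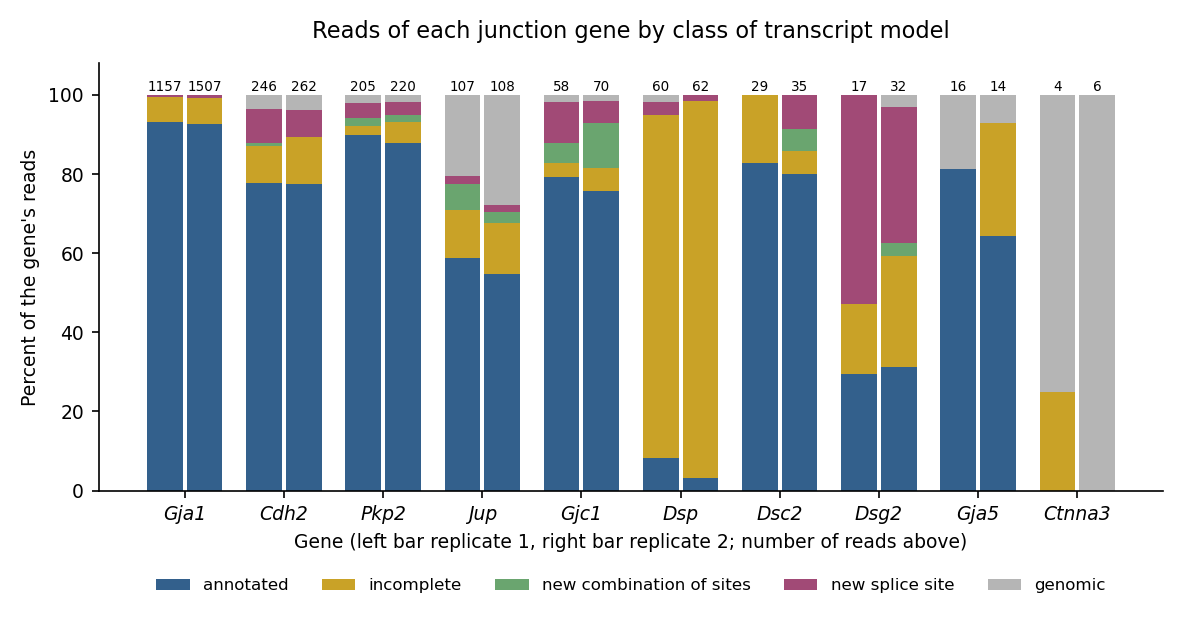
Percent of each gene's reads by class of model, stacked, with replicate 1 on the left and replicate 2 on the right of each pair and the number of reads above. Incomplete reads fill most of the Dsp bars, new splice sites stand out in Dsg2, and genomic reads in Jup and Ctnna3.

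The Dsp-201 transcript is 9592 bases long, the longest among the members. Its last exon alone (chr13:38194696-38198577) holds 3882 bases, of which 3234 are coding. Reads with no splice, assigned to that exon, numbered 27 in replicate 1 and 32 in replicate 2, and 15 and 13 more held the last 2 exons of Dsp-201 and nothing further upstream. Splicing into the last exon was seen in 31 of 59 and 29 of 62 reads, into the long exon before it in 14 and 16, and into exon 2, at 9091 bases from the 3′ end, in 8 and 2. The reads thus thinned out towards the 5′ end in both libraries.

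The other long members did not thin out to that extent. At the exon start farthest from the 3′ end, 82.4% and 71.0% of Dsg2 reads were still spliced (5495 bases), as were 82.8% and 91.4% of Dsc2 reads (4259 bases) and 81.9% and 82.9% of Cdh2 reads (3931 bases). Leaving genomic reads out, 91.6% ± 5.0 (SD, n = 2) of Dsp reads were incomplete. Over the 116 genes with a coding transcript of 8000 bases or more and 20 or more reads in each library, the median was 12.1%, with quartiles of 3.84 and 59.6%, and 4 of them exceeded Dsp. Dsp was the only one of 7 members with enough reads to pass 50% in both libraries, against 153 of 5162 genes of all lengths (2.96%). Among the 116 genes of 8000 bases or more, 29 passed it.

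**Figure D3:**
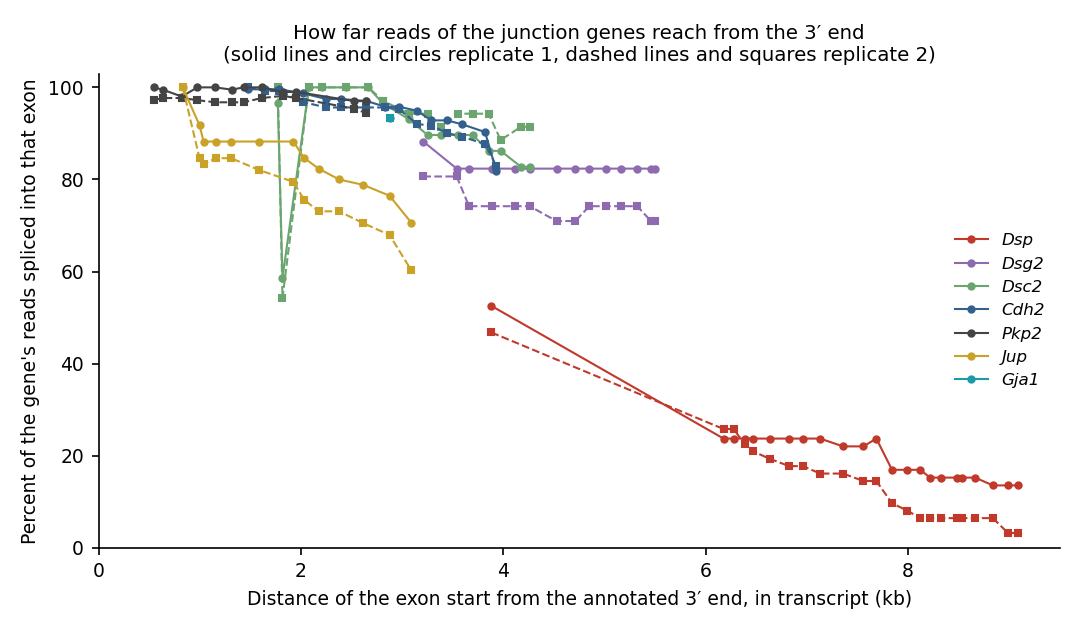
Percent of a gene's reads that are spliced into each exon of the annotated form, against the distance of that exon's start from the 3′ end in kb, for 7 genes; solid lines with circles are replicate 1 and dashed lines with squares replicate 2. Dsp falls from 52.5% and 46.8% at its last exon to 13.6% and 3.23% at exon 2, and the dip in Dsc2 is its 46-base exon.

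The choice of donor could be read in every Dsp read that was spliced into the last exon. Of these 31 reads in replicate 1 and 29 in replicate 2, the Dsp-201 donor was used in 26 and 23, or 83.9% (interval 66.3 to 94.5) and 79.3% (60.3 to 92.0). The Dsp-202 donor was used in 3 and 5 reads, or 9.68% and 17.2%. The unannotated donor appeared in 2 reads and 1 read, or 6.45% and 3.45%. It lies 468 bases downstream of the Dsp-202 donor and, like it, leaves out a multiple of 3 bases, 1329 against 1797. A desmoplakin of intermediate length, Ia, is known in human cells, as background. The desmoplakin I donor led among incomplete reads, 21 of 24 and 23 of 26, but complete reads were too few for an order, at 5 of 7 and 0 of 3. Complete reads, here and below, are spliced reads classed neither as incomplete nor as genomic, wherever they began. In replicate 2, 1 of the 3 was on a model of 14 exons that began downstream of exon 1.

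In Dsc2 the choice concerned 1 small exon. The 46-base exon (chr18:20032490-20032535) is not a multiple of 3, and its inclusion changes the end of the protein: Dsc2-201, which holds it, has 2544 coding bases and Dsc2-202, which skips it, has 2706. These correspond to the b and a forms of desmocollin, of which the a form has the longer tail that binds plakoglobin. Inclusion was 16 of 24 usable reads (66.7%, interval 44.7 to 84.4) and 17 of 28 (60.7%, 40.6 to 78.5). A difference between the libraries was not detectable by Fisher's exact test (p = 0.775, adjusted p = 1). This was the only exon of a member among 596 partly included internal exons of all genes with enough reads, of which 0 (0%) passed the adjusted test and 15 had an unadjusted p under 0.05.

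In Dsg2, reads were divided between Dsg2-201 and a form that is not in the annotation, and their order was not settled at this depth. Reads on it lacked 56 bases inside the last exon (chr18:20603543-20603598), 1210 bases after the end of the coding sequence, in the 3′ UTR. The gap was present in 8 of 17 reads on models covering the place in replicate 1 (47.1%, interval 23.0 to 72.2). In replicate 2 it was present in 17 of 30 (56.7%, 37.4 to 74.5). The reads counted without the gap include 2 and 3 unspliced ones. Their model carries the ends of the annotated last exon, so whether they cover the place is not known. Its first bases are GT and its last AG, as in most introns. In replicate 1, 1 further read had a gap of the same length placed 12 bases further on (chr18:20603555-20603610), so the placement of the gap was not the same in all reads. The complete form with the gap had 8 and 11 reads, and Dsg2-201, without it, had 5 and 9. The mice were first-generation hybrids. Whether the gap is an intron or a sequence difference between the parental genomes was not tested.

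**Figure D4:**
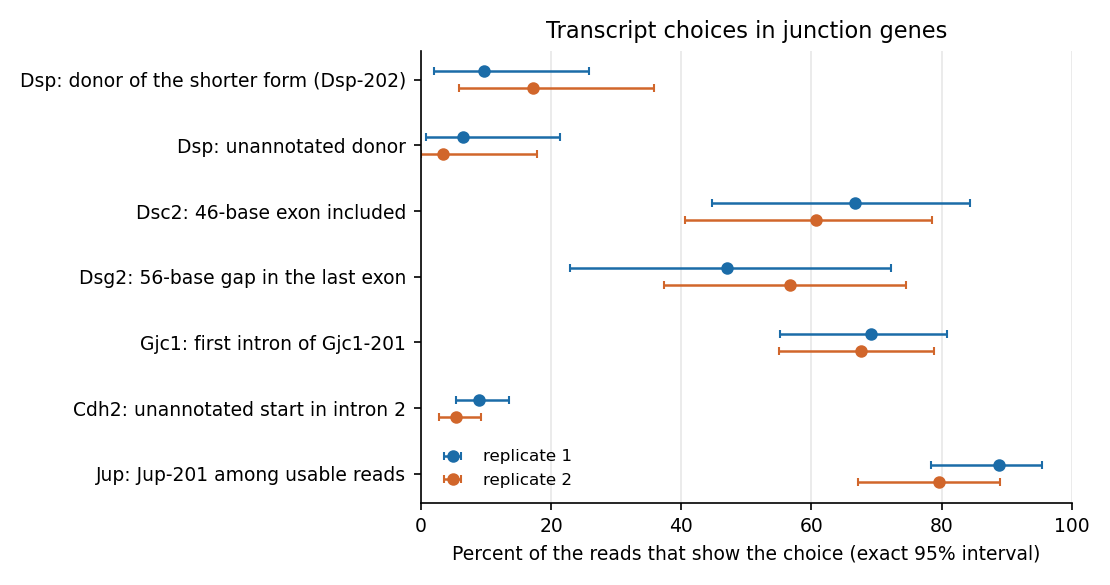
Percent of reads that show each of 7 transcript choices, with exact 95% intervals, in replicate 1 (blue) and replicate 2 (orange). The intervals of the libraries overlap for every choice, such as 66.7% and 60.7% for the 46-base exon of Dsc2.

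Among the connexins, Gja1 used nearly a single form. Gja1-201, a noncoding first exon joined to the coding exon, took 1074 of 1078 and 1391 of 1398 usable reads, or 99.6% and 99.5%. Usable reads are those on annotated forms, or on unannotated spliced forms with at least 5 reads in each library. A further 71 and 95 reads were unspliced and were assigned to the coding exon alone. An unannotated donor, joined to the coding exon by an intron at chr10:56381760-56387533, had 4 and 3 reads, and was named after its values were seen. That intron was the first of the read in 2 reads and 1 read, and another intron came before it in 2 and 2.

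Gjc1 used several first exons before the same coding exon. Gjc1-201 took 38 of 46 and 44 of 53 usable reads, or 82.6% and 83.0%, and Gjc1-202, which starts farther upstream, took 5 and 6, or 10.9% and 11.3%. Of all complete spliced reads, 9 of 55 and 12 of 65 had an unannotated first intron, or 16.4% (interval 7.77 to 28.8) and 18.5% (9.92 to 30.03). An unannotated exon between the first and second annotated ones, named after its values were seen, was found in both libraries. The intron chr11:102809746-102818969 led into it in 4 and 3 reads, and chr11:102802917-102809645 led out of it in 4 and 4. Gja5 was read in 2 forms, Gja5-201 with 11 and 8 reads and Gja5-202 with 2 reads and 1 read.

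N-cadherin reads followed Cdh2-201 with 191 and 203 reads, the only usable form. A further 19 of 214 complete spliced reads in replicate 1 (8.88%, interval 5.43 to 13.5) and 12 of 221 in replicate 2 (5.43%, 2.84 to 9.29) began inside the second intron, which is 124009 bases long, and were joined to exon 3 (chr18:16650272-16650498). They used 7 unannotated donors, of which 4 were seen in both libraries. The annotation also holds a donor inside this intron, which none of these reads used. The donor at position 16715369 had 9 and 3 reads and that at 16745110 had 4 and 6. Such reads hold neither exon 1 nor exon 2. Whether their transcripts began there or farther upstream was not tested. No single form of this kind had 5 reads in each library.

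Pkp2-201 took 184 of 184 and 190 of 193 usable reads, or 100% and 98.4%. Its reads held 13 unannotated introns, of which 0 had 5 reads in each library. In Jup, Jup-201 took 56 of 63 usable reads (88.9%, interval 78.4 to 95.4) and 47 of 59 (79.7%, 67.2 to 89.0). The remaining 7 and 12 were on Jup-204, a noncoding transcript of the 3′ end. Jup also had 22 and 30 genomic reads, or 20.6% and 27.8% of its reads, each library with 1 unspliced model over the end of the last exon. Those models run 1356 and 1416 bases past the annotated end of the gene and overlap no other annotated gene. With genomic reads counted, Jup moved from 91.6 to 117 CPM.

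In 6 members each library held 20 usable reads or more. Of them, 0 differed in the share of the leading form by Fisher's exact test after adjustment over all genes tested, and 0 had an unadjusted p under 0.05. For Cdh2, with 1 usable form, the test could not have found a difference. Over all 4348 genes tested, 1 was called (0.023%) and 96 had an unadjusted p under 0.05. In 3 of the 6, Gjc1, Dsc2 and Jup, the leading form took under 90% of usable reads in both libraries, against 1224 of 4348 genes (28.2%). The remaining members had too few usable reads for this test, and Dsp had only 5 and 2.

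Genes of the same families and of the disc, taken from 4 lists, set the members in context. Of 24 other disc partners, 23 were detected, meaning 3 or more reads in each, and summed to 5814 and 5605 CPM. The highest were Des, the desmin that desmoplakin binds, at 2389 and 2155 CPM, Ctnna1, Popdc2, a membrane protein that binds cAMP, at 474 and 541 CPM, and Ldb3, a Z-disc protein, at 415 and 359 CPM. Beta-catenin (Ctnnb1) had 85 and 83 reads, about the level of Jup with 85 and 78. By the exact binomial test with adjustment over all genes, 0 of the 23 tested differed between the libraries and 2 had an unadjusted p under 0.05. Their median log2 ratio was 0.056, against 0.0036 over all genes tested and -0.0072 over the 9 members.

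Of 20 other connexins and pannexins, 3 were detected. Gja3 stood at 47.8 and 48.6 CPM and Gja4, known from arterial endothelium, at 38.5 and 31.3 CPM, so that both had more reads than Gja5 in each library. Panx1, a channel related to connexins by shape, had 7 and 7 reads, and 13 genes of the list had none. With Gja3 and Gja4 added to the 3 member connexins, Gja1 took 88.9% and 90.6% of the reads.

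Of the 11 other desmosome genes listed, which serve skin and other epithelia, none was detected and 8 had no read. The list leaves out Perp, whose product is also known from epithelial desmosomes. Perp was counted with the disc partners and had 342 and 325 reads, or 399 and 351 CPM. Ppl, a plakin like Dsp, had 3 and 2 reads, Pkp3 had 1 and 0, Evpl had 0 and 1, and the desmoglein and desmocollin genes other than Dsg2 and Dsc2 had 0 reads. Of 5 epithelium markers, Krt5 and Epcam had no read, and Krt8 and Krt18 had 8 and 17 reads in replicate 1 and 10 and 9 in replicate 2. Of 8 other cadherins and alpha-catenins, 3 were detected: Cdh13 at 265 and 276 CPM, close to Cdh2, Cdh5 of endothelium at 51.3 and 50.7 CPM, and Cdh11 at 14.0 and 24.8 CPM. The other 5 had 0 reads. In these 3 lists, 0 of 6 tested genes differed between the libraries and 0 had an unadjusted p under 0.05, by the same test.

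**Figure D5:**
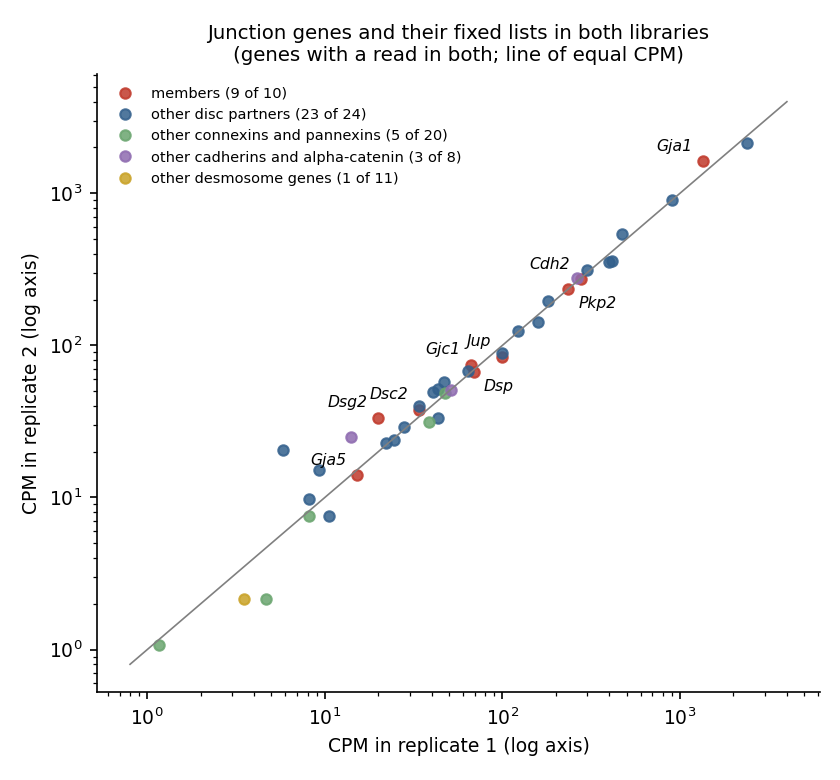
CPM in replicate 2 against CPM in replicate 1 (both log axes) for the members (red, named) and the 4 lists of related genes, shown where both libraries had a read; the line marks equal CPM. Most genes lie near the line, with Gja1 at 1347 and 1624 CPM above it.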

How the data were processed

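The deposited tables give whole-number counts of reads per transcript model, and the authors quantified alignments on mm10 with GENCODE M21, 1 library at a time, per the text deposited with each library. Per the file headers, TALON made the models. The aligner and its filters: not given in the sources used here. Single-exon incomplete models of Gja1, Dsp and Dsg2 carry the ends of annotated exons, so splice sites, not ends, were compared.

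Gene counts are the sum of every class but genomic, without the spike-in reads (12223 and 12825). Totals were 858071 and 926560. Models were matched between libraries by intron chain. The exact binomial test covered genes with at least 10 reads in all, and Fisher's exact tests those with 20 or more usable reads per library, in Python 3.11.15 with scipy 1.17.1. Adjustment followed Benjamini and Hochberg, at 0.05. Both tests were tested on simulated data. Alternatives used totals scaled by edgeR 4.0.16 (TMM) and DESeq2 1.42.0. For each member, forms with at least 5 reads in each library are named, and of each list the 4 highest genes, 1 of which is not reported here. Members and lists were chosen with earlier results of these data known.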

Additional observations from a re-analysis of the deposited data

Results flagged for a closer look

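Reads on unannotated loci on the opposite strand were in no comparison above and exceeded the 3 reads that a count of 0 allows, in both libraries, over 4 members. Over Gja1 they numbered 18 in replicate 1 and 17 in replicate 2, of which 16 and 17 were on models that overlap its annotated exons. Over Gjc1 there were 13 and 11, most on an intronic model at chr11:102816404-102818316 with 9 reads in replicate 1 and a like model with 8 in replicate 2. Over Cdh2 there were 26 and 27, of which 20 and 19 were on 1 single-exon model within its second intron, ending at position 16764808 of chromosome 18 in both libraries. Over Ctnna3, which spans 1573570 bases, there were 34 and 31, and 6 and 8 were on models that overlap its exons. Of these, 5 and 6 were on models that meet the gene only at its last base (chr10:65003667). The gene itself had 1 and 0 spliced reads on its own strand. There were no control samples to set these against, how strand was assigned is not stated in the labels, and the source of these reads was not tested.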

How the results depend on the processing

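The call of Gja1 alone among the members held with TMM totals, DESeq2 size factors, no minimum of reads, genomic reads counted and annotated models only, and the counts of 0 members for form share and for exon inclusion held under each alternative tried. With DESeq2 size factors the log2 ratio changed sign for Cdh2, to 0.0035, and for Pkp2, to 0.019, neither passing the test. The split of all called genes varied with the setting. In the main setting 45.7% were higher in replicate 2, against 43.5% with TMM totals and 45.5% with no minimum. The share was 47.3% with genomic reads and 40.8% with annotated models only. Most were higher in replicate 2 only with DESeq2 size factors, at 53.4%. Leaving out either library moved levels to that of the other, by over 1.5 times between the libraries for Dsg2 (19.8 and 33.5 CPM) and Ctnna3 (1.17 and 0 CPM). The inclusion of the Dsc2 exon was 60.4% with incomplete reads and 58.3% with all spliced reads, the latter chosen after seeing the data, against 63.7%. Depth left Ctnna3 (1 and 0 reads) untested, and Gja5, Dsg2 and the complete Dsp forms had too few usable reads for the test of form shares. No paired analysis was possible because there was only 1 group.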
